A study of Rattus norvegicus albus with 6 samples.

Results

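Collagen genes were followed on 6 microarrays of rat hepatic stellate cells, the liver cells that become matrix-producing myofibroblasts when they are activated. A gene was taken as a member when a probe set carried a single gene symbol made of Col, a number, a and a number. By this name rule 25 of the 14322 named genes were members, read by 27 probe sets, of which 1 was kept per gene, that with the highest mean. The members comprised 10 fibrillar, 5 network, 5 FACIT (fibril-associated) and 5 other collagen genes. A further 19 rat collagen genes of the same name pattern, among them Col4a2, Col6a1, Col6a2, Col6a3, Col15a1 and Col18a1, had no probe set named for them alone and were not analysed here.

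All cells were primary stellate cells of rats, grown for 7 days on plastic in medium with 10% serum until fully activated. Cells labelled Ad.DKK-1 received an adenovirus that expresses DKK-1, a secreted Wnt antagonist, and were compared with cells given a virus expressing GFP (Ad.GFP). Each virus was used at a multiplicity of infection of 200 for 24 h in 5% serum, and 24 h without serum followed. ICG-001, which blocks the partnership of β-catenin with the coactivator CBP, was used at 10 µM, and FJ9, which keeps Dishevelled from binding Frizzled receptors, at 200 µM. Either compound was given for 24 h without serum and was compared with its own vehicle array. The comparisons ask which genes respond when canonical Wnt signalling is blocked at different steps. Each of the 6 groups was 1 array of RNA pooled from 3 to 4 rats. There was no replicate, so a difference within 1 treatment has no test. Age, sex and strain of the rats are not stated in the labels.

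Collagens are proteins of 3 chains wound into a triple helix built on repeats of glycine and 2 further residues. Fibrillar collagens form the banded fibrils of scar tissue, network collagens form sheets such as basement membranes, and FACIT collagens sit on the surface of fibrils. Activated stellate cells are the main source of the collagen laid down in liver fibrosis, chiefly types I and III. The chains are hydroxylated and folded in the endoplasmic reticulum, secreted, trimmed of their end propeptides and taken up again by cell surface receptors.

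The values are log2 levels as deposited, and a difference is treated minus its own control on that scale. The arrays had medians between 7.01 and 7.28 over all 26988 probe sets, and their highest values lay between 13.5 and 13.8. The stellate cell markers vimentin (12.75 to 13.09), Pdgfrb (11.91 to 12.55) and Reln (10.61 to 12.29) read high on all 6 arrays, while Gfap and Ngfr, 2 of the 9 stellate markers, lay under the level filter described next. Of the markers measured for other liver cells, 1 of 6 for hepatocytes, 2 of 4 for sinusoidal endothelial cells, 2 of 7 for macrophages, 2 of 3 for cholangiocytes and 3 of 5 for portal fibroblasts passed that filter. So did 4 of 4 smooth muscle markers, which activated stellate cells share in part. The filter left out the 30% of genes with the lowest mean level (up to 6.39) and kept 10025 genes, 23 collagen genes among them. Col4a3 and Col10a1 were under it and are given apart from the counts. Fewer cells of a type and less RNA per cell cannot be told apart in these pooled samples.

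Across the collagen genes, lower levels under treatment were common and large increases were rare. Under Ad.DKK-1, 10 of 23 collagen genes were at least 1.5-fold lower than under Ad.GFP, beside 20.8% of all 10025 genes, and 0 were at least 1.5-fold higher, beside 14.5%. Of these 10, Col4a4 (6.11), Col11a2 (6.02) and Col23a1 (6.15) read under the filter level of 6.39 on the Ad.DKK-1 array. With FJ9, 6 of 23 were at least 1.5-fold lower than in its vehicle, beside 14.8% of all genes, and 1 was higher, beside 11.6%. Of these 6, Col4a4 (6.27) read under that level on the FJ9 array. With ICG-001, 3 of 23 were at least 1.5-fold lower than in its vehicle, a share of 13% beside 13.1% of all genes, and 1 was higher, beside 12.6%. The median collagen difference was −0.36 under Ad.DKK-1, −0.32 with ICG-001 and −0.25 with FJ9, while the medians of all genes were −0.07, 0.01 and 0.01 in the same order. In each treatment 19 of 23 collagen genes lay below their own control, beside 53.8% of all genes under Ad.DKK-1, 49.3% with ICG-001 and 49.2% with FJ9. The vehicle arrays also differed in these genes. On the vehicle array of FJ9, 7 of 23 collagen genes were at least 1.5-fold lower than on that of ICG-001, beside 5.2% of all genes, and 0 were higher, beside 2.44%. By any amount, 18 of 23 were lower there, beside 4584 of all 10025 genes. The median collagen difference between the vehicle arrays was −0.42. Between these pools, which had received no compound, the median difference was thus larger in size than in any of the 3 treatments. Their count of 7 lower genes was above those with FJ9 and ICG-001 and under the 10 of Ad.DKK-1.

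**Figure D1:**
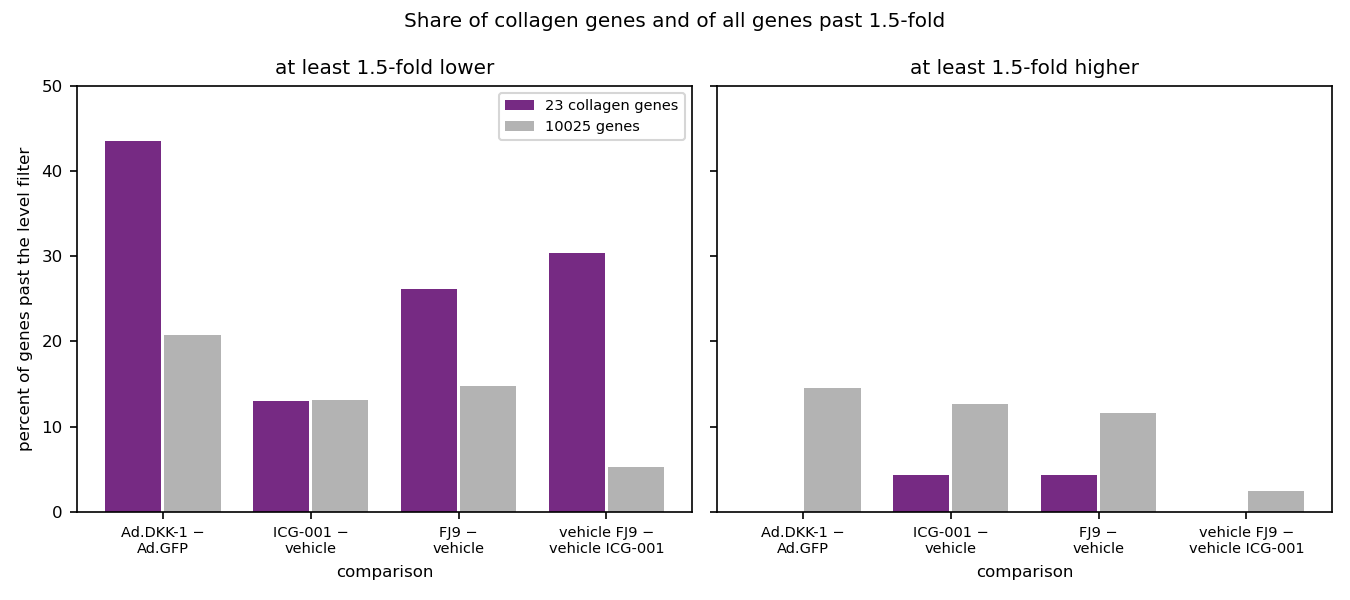
Bars give the percent of the 23 collagen genes (purple) and of the 10025 genes past the level filter (grey) that were at least 1.5-fold lower (left) or higher (right) in each of 4 comparisons, each of 1 array against 1 array. The collagen bar stands at 43.5% for lower genes under Ad.DKK-1 and at 30.4% between the vehicle arrays.

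Col1a1 and Col1a2, which encode the chains of type I collagen, differed little from their controls. Col1a1 read 12.80 under Ad.DKK-1 against 12.98 under Ad.GFP, 12.77 with ICG-001 against 12.96 in its vehicle, and 12.57 with FJ9 against 12.80 in its vehicle. Every treated array was below every control array, but the gap between the groups was 0.0042, while the controls spanned 0.18. The differences of Col1a1 were −0.19, −0.18 and −0.23. They lay close together, with an SD of 0.024 over the 3 treatments, and the vehicle arrays themselves differed by −0.16. Col1a2 read 12.56 under Ad.DKK-1 against 12.61 under Ad.GFP, 12.24 with ICG-001 against 12.50 in its vehicle, and 12.17 with FJ9 against 12.42 in its vehicle. The treated and control arrays overlapped, and the difference under Ad.DKK-1 (−0.05) changed sign when arrays were centred on their medians. Both genes read near the top of the scale, Col1a1 between 0.47 and 1.01 log2 units below the highest value on its array, and whether such bright probe sets still respond in proportion was not tested.

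Col3a1, the chain of type III collagen that is laid down with type I in scars, was lower under every treatment. It read 11.60 under Ad.DKK-1 against 12.58 under Ad.GFP, 12.06 with ICG-001 against 12.38 in its vehicle, and 12.08 with FJ9 against 12.49 in its vehicle. The groups did not overlap, with a gap of 0.30 against a range of 0.20 over the 3 controls. It was 1.97-fold lower under Ad.DKK-1, 1.25-fold lower with ICG-001 and 1.33-fold lower with FJ9. Under Ad.DKK-1 the type III chain was thus nearly 1 log2 unit lower in cells whose type I chains differed by 0.19 or less.

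The type V chains, which join type I fibrils and set their width, differed from each other. Col5a1 read 10.56 under Ad.DKK-1 against 11.25 under Ad.GFP, 11.15 with ICG-001 against 11.53 in its vehicle, and 10.12 with FJ9 against 11.42 in its vehicle. Its groups did not overlap, and the FJ9 array was the lowest of the 6, at 2.46-fold under its vehicle. Col5a2, which encodes the partner chain of Col5a1, read 11.25 under Ad.DKK-1 against 11.64 under Ad.GFP, 11.91 with ICG-001 against 11.78 in its vehicle, and 11.64 with FJ9 against 11.88 in its vehicle. Its differences stayed within 1.5-fold, and the ICG-001 array was the highest of the 6. Col5a3, a rarer chain, differed by −0.74 with ICG-001, by −0.27 under Ad.DKK-1 and by −0.01 with FJ9. Both virus arrays of Col5a3 (7.00 under Ad.DKK-1 and 7.27 under Ad.GFP) were below the other 4, which read 7.85 to 8.59. Col3a1 and Col5a2 are next to each other among protein-coding genes in the RefSeq gene table, and under Ad.DKK-1 they differed by −0.98 and −0.40.

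Among the minor fibrillar genes, Col11a1 was the only collagen gene at least 1.5-fold higher with ICG-001. It encodes a type XI chain known from cartilage and from activated fibroblasts. Col11a1 read 11.04 with ICG-001 against 10.26 in its vehicle, 9.92 under Ad.DKK-1 against 9.86 under Ad.GFP, and 9.61 with FJ9 against 9.73 in its vehicle. The ICG-001 array stood above the other 5, by 0.78 over its own vehicle and by 1.31 over the vehicle of FJ9. It was the 1 of 23 collagen genes at least 1.5-fold higher than both vehicles, beside 8.33% of all genes. Col11a2, the second type XI chain, went the other way, with differences of −1.09 under Ad.DKK-1, −0.54 with ICG-001 and −0.10 with FJ9. Its groups did not overlap, but the gap was 0.0055. Col2a1, the main collagen of cartilage, read 10.18 to 10.53 on the treated arrays and 10.45 to 11.06 on the controls. It differed by −0.72 with ICG-001, by −0.36 under Ad.DKK-1 and by −0.27 with FJ9, and by −0.61 between the vehicle arrays. Col27a1, a fibrillar gene known from cartilage, was higher under Ad.DKK-1 (0.36) and with FJ9 (0.40), both within 1.5-fold, and differed by −0.13 with ICG-001. It ran from 8.36 in the vehicle of FJ9 to 9.64 under Ad.GFP over the control arrays, a spread wider than any of its treatment differences.

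**Figure D2:**
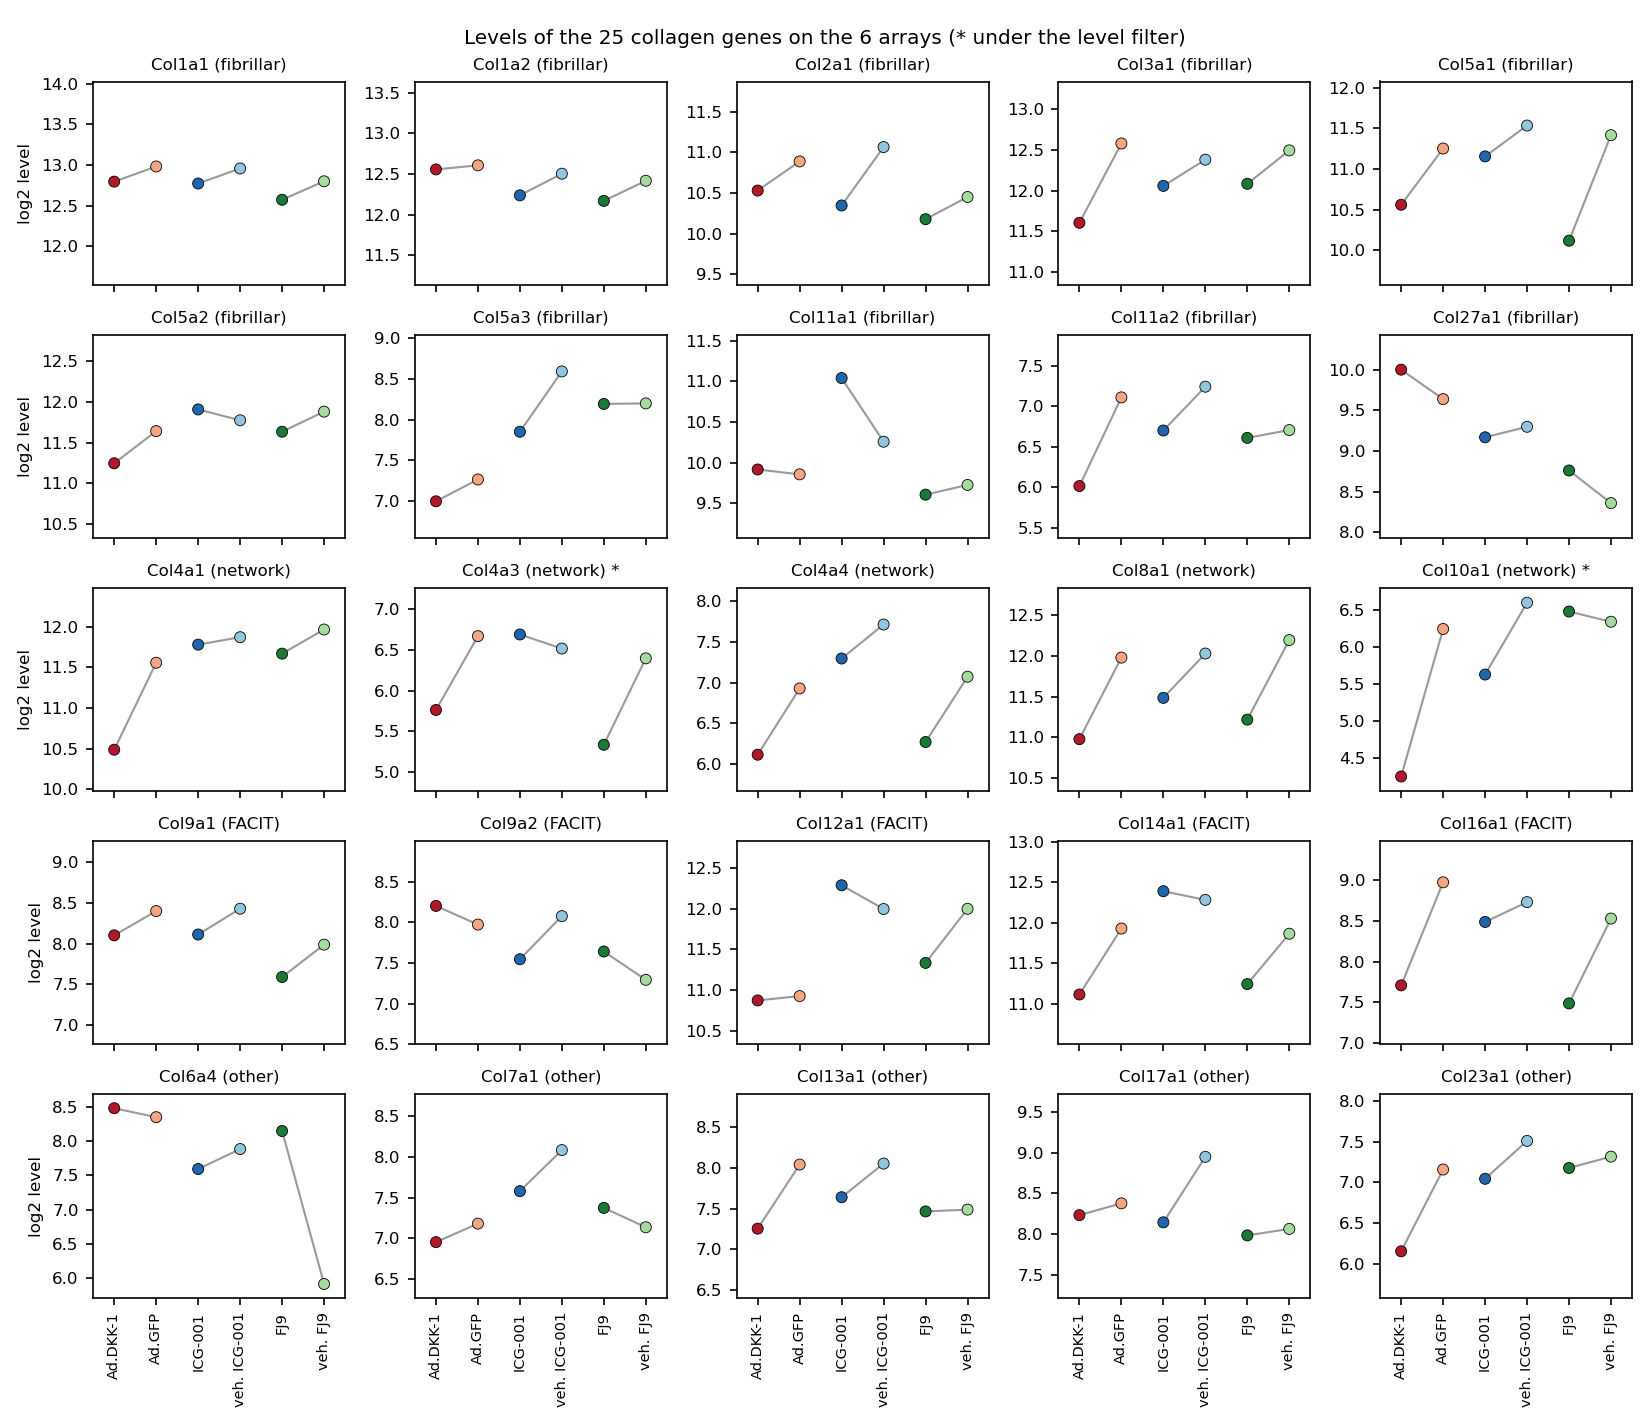
Each panel shows 1 collagen gene, with the log2 level on the vertical axis and the 6 arrays on the horizontal axis, where grey lines join a treated array to its own control. Col8a1, Col3a1 and Col5a1 are lower on each treated array than on any control, Col11a1 is high on the ICG-001 array alone, and Col6a4 is low on the vehicle array of FJ9 alone.

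Of the network collagens, all 3 past the level filter were at least 1.5-fold lower under Ad.DKK-1, beside 20.8% of all genes, 2 of 3 with FJ9, beside 14.8%, and 0 of 3 with ICG-001, beside 13.1%. Col8a1, which encodes a short-chain collagen of vessel walls and activated mesenchymal cells, read 10.98 under Ad.DKK-1 against 11.98 under Ad.GFP. It read 11.48 with ICG-001 against 12.03 in its vehicle, and 11.22 with FJ9 against 12.20 in its vehicle. The 3 treated arrays lay 0.50 below the lowest control, and the 3 controls spanned 0.22. Col8a1 was 2.00-fold lower under Ad.DKK-1, 1.46-fold lower with ICG-001 and 1.97-fold lower with FJ9. Against the other vehicle array the differences were −0.71 for ICG-001 and −0.81 for FJ9.

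Col4a1, a main chain of basement membranes, was low on 1 array. It read 10.49 under Ad.DKK-1 against 11.56 under Ad.GFP, 11.78 with ICG-001 against 11.87 in its vehicle, and 11.67 with FJ9 against 11.96 in its vehicle. The difference was −1.07 under Ad.DKK-1 and within 1.5-fold for both compounds, and for ICG-001 (−0.09) its sign depended on the scaling, with a range of −0.10 to 0.08. Col4a4, a chain of specialised basement membranes, read 6.11 under Ad.DKK-1 against 6.93 under Ad.GFP, 7.30 with ICG-001 against 7.71 in its vehicle, and 6.27 with FJ9 against 7.07 in its vehicle. Its differences under Ad.DKK-1 (−0.81) and with FJ9 (−0.80) were close in size to the 0.79 spanned by the controls, and that with ICG-001 (−0.42) was smaller. Col4a3, its neighbour in the gene table and partner in the same trimer, lay under the level filter. Col4a3 read 5.76 under Ad.DKK-1 against 6.67 under Ad.GFP, 6.69 with ICG-001 against 6.52 in its vehicle, and 5.34 with FJ9 against 6.40 in its vehicle. Both genes of the pair were thus lowest on the Ad.DKK-1 and FJ9 arrays. Col10a1, known from growth plate cartilage and also under the filter, read 4.24 under Ad.DKK-1 against 6.25 under Ad.GFP, 5.63 with ICG-001 against 6.60 in its vehicle, and 6.48 with FJ9 against 6.35 in its vehicle. Its Ad.DKK-1 value is near the floor of 4.00 that the arrays share.

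Of 5 FACIT collagens, 2 were at least 1.5-fold lower under Ad.DKK-1, beside 20.8% of all genes, 3 with FJ9, beside 14.8%, and 0 with ICG-001, beside 13.1%. Below their own control by any amount were 4 of 5 under Ad.DKK-1, beside 53.8% of all genes. With FJ9 4 were so, beside 49.2%, and with ICG-001 3, beside 49.3%. Col16a1, a minor fibril-associated collagen, read 7.71 under Ad.DKK-1 against 8.98 under Ad.GFP, 8.49 with ICG-001 against 8.73 in its vehicle, and 7.49 with FJ9 against 8.53 in its vehicle. It was 2.41-fold lower under Ad.DKK-1 and 2.06-fold lower with FJ9, and the groups did not overlap, with a gap of 0.042. Col14a1, which encodes undulin, a fibril-surface collagen, read 11.12 under Ad.DKK-1 against 11.93 under Ad.GFP, 12.39 with ICG-001 against 12.28 in its vehicle, and 11.25 with FJ9 against 11.87 in its vehicle. The ICG-001 array was the highest of the 6 and the other treated arrays were the lowest. Col12a1, a fibril-surface collagen of tissues under tension, read 11.33 with FJ9 against 12.00 in its vehicle, a difference of −0.67. It was at 12.29 with ICG-001 against 11.99 in its vehicle, and at 10.87 under Ad.DKK-1 against 10.92 under Ad.GFP. Both virus arrays were below the other 4, so the level of Col12a1 differed by more between the virus and the compound cultures than within the Ad.DKK-1 pair. Col9a1 and Col9a2, chains of the cartilage type IX collagen, stayed within 1.5-fold of their controls in all 3 treatments. Col9a1 differed by −0.30 under Ad.DKK-1, −0.32 with ICG-001 and −0.40 with FJ9, and by −0.44 between the vehicle arrays. Col9a2 differed by 0.23, −0.53 and 0.35 in the same order, and by −0.78 between the vehicle arrays.

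**Figure D3:**
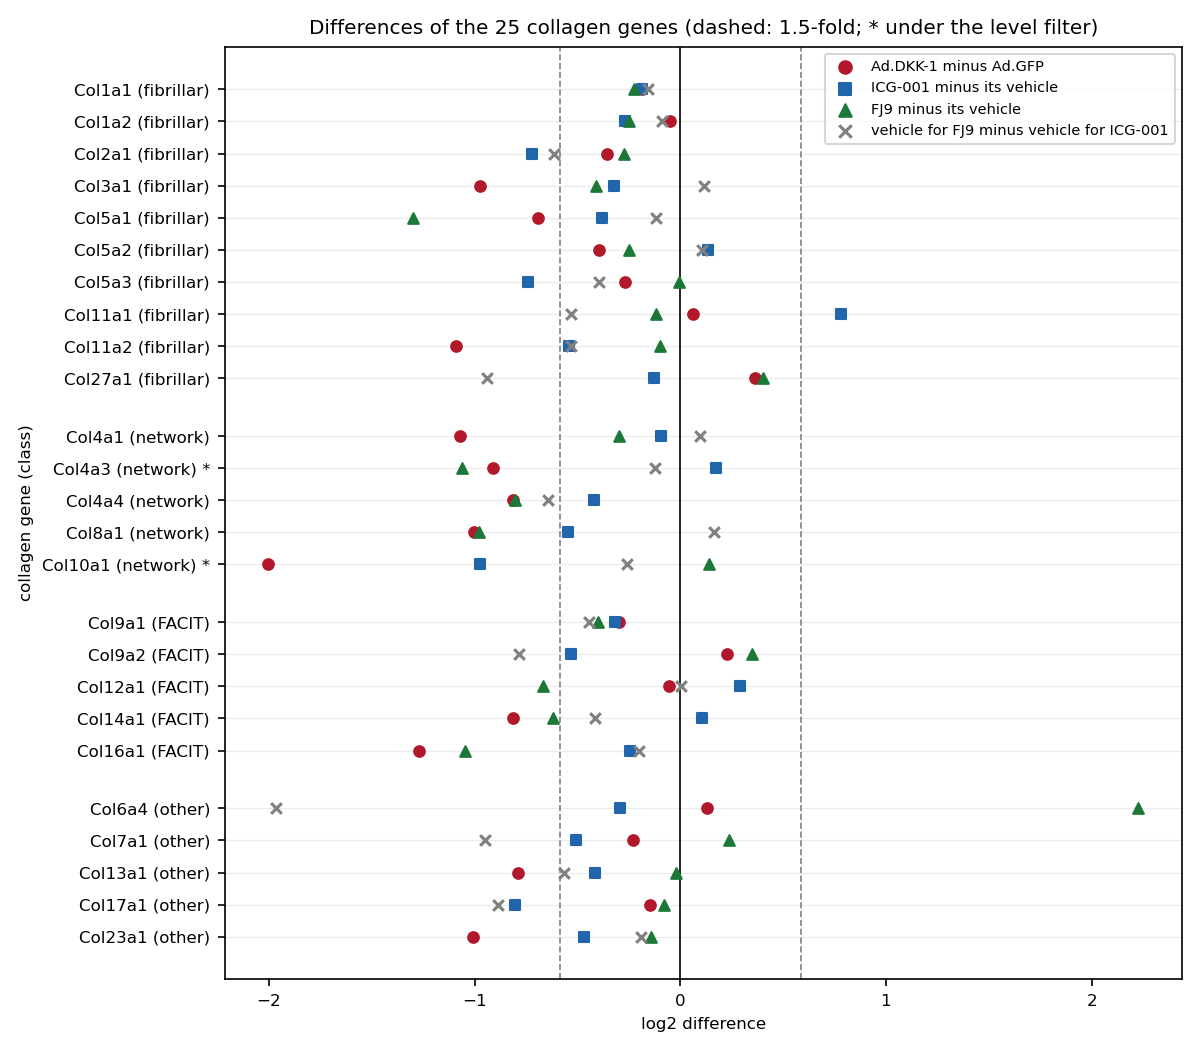
Points give the log2 difference (horizontal axis) of each of the 25 collagen genes (vertical axis, by class) for Ad.DKK-1 minus Ad.GFP (circles), ICG-001 minus its vehicle (squares), FJ9 minus its vehicle (triangles) and the vehicle for FJ9 minus that for ICG-001 (crosses). Points left of the left dashed line are at least 1.5-fold lower; the 3 filtered network collagens lie there under Ad.DKK-1, and Col6a4 is the only gene beyond 1.5-fold higher with FJ9.

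Of the transmembrane collagens, Col23a1 read 6.15 under Ad.DKK-1 against 7.16 under Ad.GFP, 7.04 with ICG-001 against 7.51 in its vehicle, and 7.18 with FJ9 against 7.32 in its vehicle. The Ad.DKK-1 array alone was far below the rest, at 2.01-fold under Ad.GFP. Col13a1, found at cell adhesion sites, differed by −0.79 under Ad.DKK-1, −0.41 with ICG-001 and −0.02 with FJ9. Col17a1, a hemidesmosome collagen of epithelia, differed by −0.81 with ICG-001, −0.15 under Ad.DKK-1 and −0.08 with FJ9. The ICG-001 value of Col17a1 (8.15) lay inside the range of the other treated arrays and of the FJ9 vehicle (7.98 to 8.23), while the ICG-001 vehicle read 8.95. Col7a1, which forms anchoring fibrils, stayed within 1.5-fold of its control in each treatment and differed by −0.95 between the vehicle arrays.

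Col6a4, which encodes a type VI chain of beaded filaments, was the only collagen gene at least 1.5-fold higher with FJ9, and that value rested on its control. It read 8.48 under Ad.DKK-1 against 8.35 under Ad.GFP, 7.59 with ICG-001 against 7.88 in its vehicle, and 8.15 with FJ9 against 5.92 in its vehicle. The vehicle array of FJ9 was thus 1.67 below the next lowest array, and FJ9 differed by 0.26 from the other vehicle. The other probe sets of Col6a4 differed by −0.01 and −0.31 with FJ9, against 2.23 for the one that stood for the gene. It was the only member with several probe sets.

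Treated and control arrays were compared once more, first across all 6 arrays without the pairs and then over the 3 pairs. The first comparison also sets virus cultures against compound cultures, which differed in serum as well. Every treated array lay below every control array in 6 of 23 collagen genes (Col1a1, Col3a1, Col5a1, Col8a1, Col11a2 and Col16a1), beside 13.2% of all genes, and above every control in 0 of 23, beside 13.9%. With limma and the pair as a block, 2 of 23 fell on average over the treatments at an adjusted p under 0.05, and none rose, beside 5.02% and 3.56% of all genes. Col8a1 fell by 0.84 ± 0.18 (standard error, adjusted p = 0.0118), lower in 3 of 3 pairs. Col5a1 fell by 0.79 ± 0.20 (adjusted p = 0.0279), also in 3 of 3 pairs. Col16a1 differed by −0.85 ± 0.25 (adjusted p = 0.0505) and Col3a1 by −0.57 ± 0.19 (adjusted p = 0.0802), both short of the threshold. Col1a1 had an adjusted p of 0.5, with a standard error of 0.17, while its 3 differences had an SD of 0.024. These errors and p-values borrow variance from other genes (eBayes), so they do not measure the spread within 1 gene alone. At an unadjusted p under 0.05 there were 8 of 23 collagen genes, beside 25% of all genes. The treatments differ and do not replicate one another, so this tests the mean over the 3 treatments and leaves 2 residual degrees of freedom. Centring each array on its median left 0 collagen genes past the threshold (adjusted p = 0.0548 for Col8a1 and 0.104 for Col5a1). Leaving out the FJ9 pair left Col8a1 alone (0.0314, and 0.213 for Col5a1), and leaving out the ICG-001 pair added Col16a1 (0.0389).

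Between treatments, the lower genes were partly shared and partly apart. Of 23 collagen genes, 5 (Col4a4, Col5a1, Col8a1, Col14a1 and Col16a1) were at least 1.5-fold lower both under Ad.DKK-1 and with FJ9, beside 7.2% of all genes. These 5 made up 5 of the 10 lower under Ad.DKK-1 and 5 of the 6 lower with FJ9. Over all genes, 722 were lower in both, of 2082 lower under Ad.DKK-1 and 1484 lower with FJ9. The 5 lower under Ad.DKK-1 and not with FJ9 at this threshold were Col3a1, Col4a1, Col11a2, Col13a1 and Col23a1, and Col12a1 was lower with FJ9 and not under Ad.DKK-1. The 3 lower with ICG-001 (Col2a1, Col5a3 and Col17a1) were past 1.5-fold in neither other treatment. None of 23 was at least 1.5-fold lower in all 3 treatments, beside 3.14% of all genes. None was at least 1.5-fold higher in 1 treatment and lower in another, a count not taken over all genes. With 1 array a group, these differences between treatments were not tested.

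The compounds were set against both vehicle arrays because these differed in collagen genes. With FJ9, all 6 lower genes were also at least 1.5-fold lower than the vehicle of ICG-001, beside 11.3% of all genes that were so from both vehicles. With ICG-001, 0 of 23 were at least 1.5-fold lower than both vehicles, beside 7.37% of all genes. The values of Col2a1, Col5a3 and Col17a1 from the vehicle of FJ9 were −0.10, −0.35 and 0.08. With that vehicle 11 of 23 collagen genes lay below the control for ICG-001 and the median difference became 0.03, and the median of FJ9 became −0.63 with the vehicle of ICG-001. Median centring, which adds 0.17 to every ICG-001 difference, left 1 collagen gene lower with ICG-001, beside 754 of all genes. Set against all 3 control arrays at once, 9 of 23 were at least 1.5-fold lower under Ad.DKK-1, beside 11.9% of all genes, 5 of 23 with FJ9, beside 9.38%, and 0 of 23 with ICG-001, beside 5.42%.

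**Figure D4:**
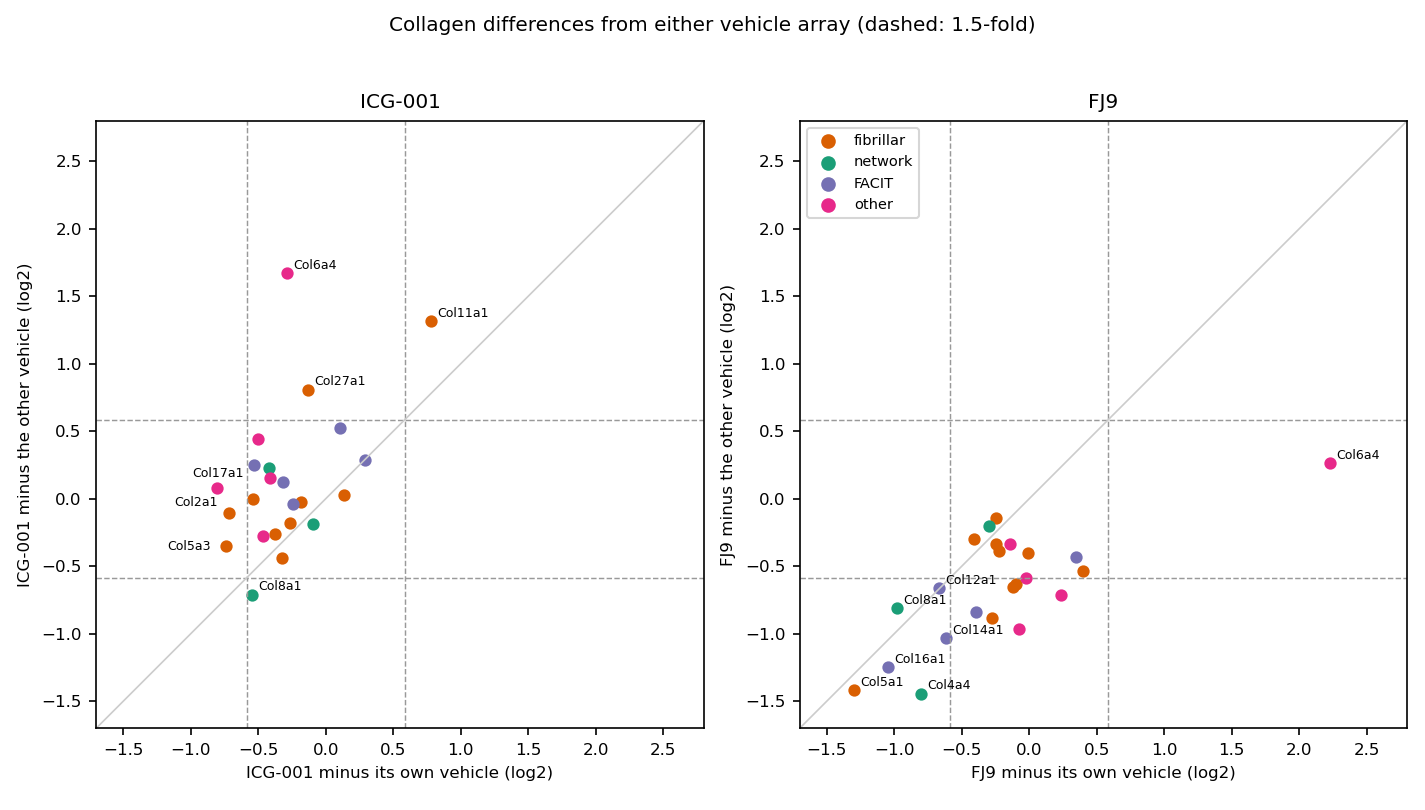
Each point is 1 of 23 collagen genes, with the log2 difference of ICG-001 (left) or FJ9 (right) from its own vehicle on the horizontal axis and from the other compound's vehicle on the vertical axis; dashed lines mark 1.5-fold and the diagonal marks equal values. Names mark genes past 1.5-fold from either vehicle on the left and from FJ9's own vehicle on the right: no gene is past 1.5-fold lower on both axes for ICG-001, and 6 genes are for FJ9.

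Genes that modify and fold collagen chains were lower in part. Of the 19 listed, 18 passed the level filter. Under Ad.DKK-1 6 of 18 were at least 1.5-fold lower and 0 higher (median −0.30), beside 20.8% and 14.5% of all genes. With ICG-001 4 of 18 were lower and 0 higher (median −0.26), beside 13.1% and 12.6%, and with FJ9 4 of 18 were lower and 0 higher (median −0.31), beside 14.8% and 11.6%. Between the vehicle arrays 0 of 18 were past 1.5-fold in either direction (median 0.08), beside only 5.2% of all genes lower and 2.44% higher. In limma over the 3 pairs 2 of 18 fell and none rose, beside 5.02% and 3.56% of all genes. P3h4, which acts with lysyl hydroxylase in the endoplasmic reticulum, differed by −0.59 under Ad.DKK-1, −1.22 with ICG-001 and −0.78 with FJ9 (adjusted p = 0.0226). P3h2, a prolyl 3-hydroxylase of basement membrane collagen, differed by −0.98, −0.26 and −1.21 in the same order (adjusted p = 0.0299). Plod1, a lysyl hydroxylase, differed by −1.19 under Ad.DKK-1, and the collagen galactosyltransferase Colgalt1 by −0.72. The prolyl 3-hydroxylase P3h1 and the folding enzyme Fkbp14 differed by −0.93 and −0.93 with ICG-001 and by −0.85 and −0.85 with FJ9, against 0.02 and 0.35 under Ad.DKK-1. Serpinh1, the collagen chaperone HSP47, read 12.71 under Ad.DKK-1 against 12.56 under Ad.GFP, 12.65 with ICG-001 against 12.45 in its vehicle, and 12.17 with FJ9 against 12.45 in its vehicle. P4hb, the shared subunit of prolyl 4-hydroxylase, differed by 0.41, −0.21 and −0.26. The chaperone and this subunit thus stayed within 1.5-fold in all 3 treatments.

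Of 14 secretion and propeptide processing genes listed, 9 passed the level filter. Under Ad.DKK-1 4 of 9 were at least 1.5-fold lower and 3 higher, beside 20.8% and 14.5% of all genes. With ICG-001 2 were lower and 1 higher, beside 13.1% and 12.6%, and with FJ9 2 were lower and 0 higher, beside 14.8% and 11.6%. All 9 lay below the control with FJ9, beside 49.2% of all genes, but Creb3l1 and Tll1 differed by only −0.0022 and −0.0036. Adamts2, which removes the N-terminal propeptide of fibrillar collagens, fell over the 3 pairs (adjusted p = 0.0414), with differences of −1.77 under Ad.DKK-1, −0.32 with ICG-001 and −0.52 with FJ9. It was the only one of the 9 past the limma threshold, beside 5.02% of all genes that fell. Under Ad.DKK-1 the related Adamts14 differed by −1.18, the C-propeptide protease Bmp1 by −1.15 and its enhancer Pcolce by −0.84. Tll1, a protease related to Bmp1, went the other way, at 0.83 under Ad.DKK-1 and 1.92 with ICG-001, and at −0.0036 with FJ9. Sec23a, a coat protein of the vesicles that carry procollagen, differed by 0.75 under Ad.DKK-1 and by −1.07 and −1.03 with ICG-001 and FJ9.

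Of 12 receptor, uptake and breakdown genes listed, 10 passed the level filter, and Mrc2 was lower by a similar amount in every treatment. Mrc2, the endocytic receptor that takes up collagen fragments, read 7.79 under Ad.DKK-1 against 9.27 under Ad.GFP, 7.72 with ICG-001 against 9.05 in its vehicle, and 7.56 with FJ9 against 9.07 in its vehicle. It fell in limma over the 3 pairs (adjusted p = 0.0013), and the vehicle arrays differed by 0.02. Ddr2, a kinase receptor for fibrillar collagen, rose over the 3 pairs (adjusted p = 0.0206), by 0.70, 0.67 and 0.80. These were the 2 of 10 genes past the threshold, 1 in each direction, beside 5.02% of all genes that fell and 3.56% that rose. Under Ad.DKK-1 6 of 10 were at least 1.5-fold lower and 1 higher, beside 20.8% and 14.5% of all genes. With ICG-001 1 was lower and 4 higher, beside 13.1% and 12.6%, and with FJ9 3 were lower and 1 higher, beside 14.8% and 11.6%. The collagen-binding integrin gene Itga11 differed by −0.99 under Ad.DKK-1, 0.94 with ICG-001 and −0.66 with FJ9, and Itga2 by −0.26, 1.07 and −0.21. The collagen protease Mmp14 differed by −0.75, −0.02 and −0.96.

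**Figure D5:**
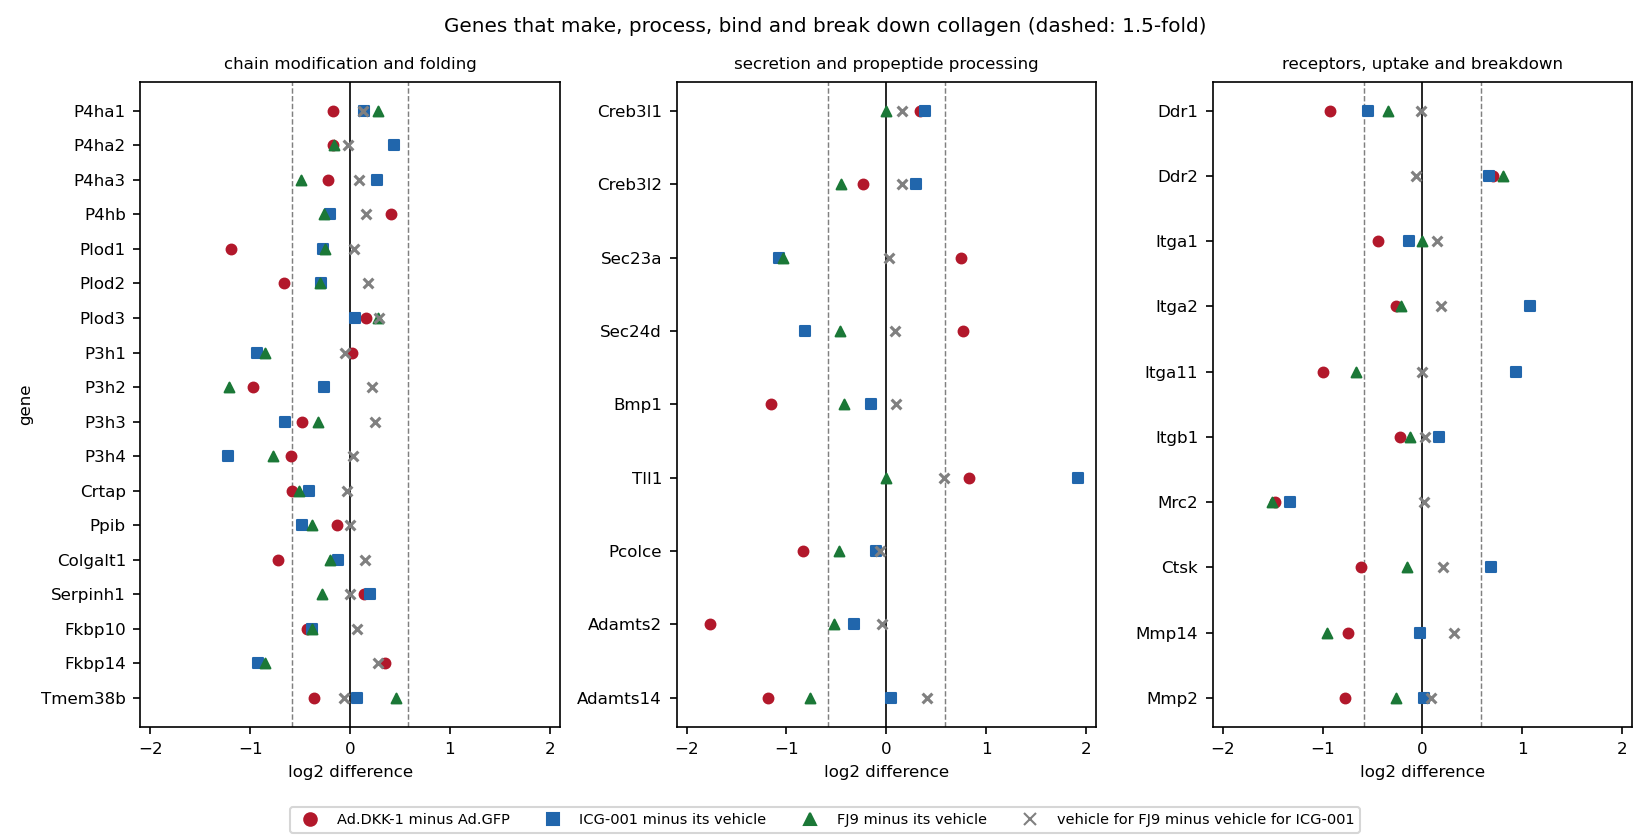
Points give the log2 difference (horizontal axis) of each filtered gene of 3 lists (vertical axis) for Ad.DKK-1 minus Ad.GFP (circles), ICG-001 minus its vehicle (squares), FJ9 minus its vehicle (triangles) and the vehicle for FJ9 minus that for ICG-001 (crosses), with dashed lines at 1.5-fold. Mrc2 lies between −1.51 and −1.33 and Ddr2 between 0.67 and 0.80 in all 3 treatments, with both vehicle differences near 0.

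Markers of other cells moved with some of these results. The summed log2 level of the 7 macrophage markers was 39.6 under Ad.DKK-1 against 46.4 under Ad.GFP, 39.7 with ICG-001 against 45.1 in its vehicle, and 42.1 with FJ9 against 45.2 in its vehicle. The treated arrays were below every control, and 5 of the 7 lay under the level filter. Of the 2 that passed it, Csf1r fell in limma over the 3 pairs (adjusted p = 0.0205), with differences of −0.92 under Ad.DKK-1, −1.17 with ICG-001 and −1.37 with FJ9, and Cd68 did not pass the threshold (adjusted p = 0.167). Of the 7 stellate cell markers past the filter, Hand2 and Lrat fell (adjusted p = 0.0186 and 0.00108), and the other 5 did not pass the threshold. Lrat differed by −3.34 with FJ9. Of the markers that did not pass, Des differed by 0.31 under Ad.DKK-1, 0.33 with ICG-001 and −0.88 with FJ9. The summed level of the 9 stellate cell markers was 86.1 under Ad.DKK-1 against 90.8 under Ad.GFP, 88.4 with ICG-001 against 91.0 in its vehicle, and 81.8 with FJ9 against 88.4 in its vehicle. The summed level of the 4 smooth muscle markers was 29.8 under Ad.DKK-1 against 30.4 under Ad.GFP, 31.2 with ICG-001 against 31.7 in its vehicle, and 27.8 with FJ9 against 32.8 in its vehicle. Of these 4, Myh11 fell in limma (adjusted p = 0.0487), with differences of −0.55 under Ad.DKK-1, −0.77 with ICG-001 and −1.71 with FJ9. For hepatocyte markers the 6 sums lay between 34.0 and 40.3, for endothelial markers between 23.5 and 27.3, for cholangiocyte markers between 17.0 and 20.3, and for portal fibroblast markers between 28.2 and 34.3. In each of these marker sets as well, every treated sum was below that of its own control, so the macrophage markers were not alone in this. The smallest such gap was for portal fibroblasts with FJ9, at 32.56 against 32.60 in its vehicle. The part of these shifts in the collagen differences was not tested.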

How the data were processed

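Total RNA of the stellate cells, pooled over 3 to 4 rats per array, was copied into labelled single-stranded DNA and read on Affymetrix whole-transcript arrays, per the labels' protocols. The deposited values are log2 levels per probe set, for which the submitters' processing notes name RMA and Affymetrix Expression Console without versions. RMA corrects background, equalises the arrays' distributions and summarises probes, yet the deposited medians differed by up to 0.27. The values were used as deposited, with no detection calls.

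Of 26988 probe sets, 15092 had 1 gene symbol in the platform annotation, 323 had several and 11573 had none. All 25 collagen genes matched the RefSeq gene table (GRCr8) by Entrez identifier, which was used for names and gene order only. No sequence was used.

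Differences of 1 array against 1 array have no test and were counted at 1.5-fold among 10025 genes. limma 3.58.1 in R 4.3.3 (lmFit and trended eBayes, two-sided p-values with Benjamini-Hochberg adjustment over these genes) tested treated against control over the 3 pairs, with the pair, which the labels give, as a block. On simulated arrays it called 100% of genes changed by a known amount. That amount was larger than the mean difference of any collagen gene, so how often smaller changes are called was not tested. It was also the same in all 3 pairs, whereas the differences of Col5a1, for example, had an SD of 0.47 over the treatments. How often such uneven changes are called was not tested either. Every collagen gene could be named, as could, in each other list, the 4 filtered genes with the largest difference per comparison, and Serpinh1, P4hb, Mrc2 and Ddr2. The members and lists were chosen with earlier results of these data known. The alternatives were median centring, a second quantile normalization, loess within pairs, no level filter, averaged probe sets and the other vehicle, and for limma no trend, no block and leaving out each pair.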

Additional observations from a re-analysis of the deposited data

How the results depend on the processing

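Of 112 recomputed values, 97 stayed within 1.5 times the count or, for a median, within 0.10 (the SD of the collagen differences between the vehicle arrays, 0.48, over the root of 23), 15 moved further and 0 reversed a called value. Under Ad.DKK-1 the alternatives kept both 1.5-fold counts within 1.5 times and the median within 0.10, but median centring left 17 of 23 collagen genes below Ad.GFP, against 19, as Col1a2 and Col12a1 turned to 0.04 each. With ICG-001, median centring left 1 gene lower and a median of −0.15, beside 754 lower and a median of 0.18 over all genes. The other vehicle left 1 lower and 3 higher, beside 1221 and 1253 of all genes. With it 11 of 23 lay below the control, beside 4806 of all genes, and the median was 0.027, beside 0.025. With FJ9, the other vehicle gave 13 lower and 0 higher, beside 1723 and 1588 of all genes, and a median of −0.63. Leaving out Col6a4, chosen after seeing the data, gave 0 higher with FJ9. Between the vehicle arrays median centring gave a median of −0.28. Centring adds 0.17 to all ICG-001 differences by construction and turned the split of all genes to 2218 higher and 754 lower with ICG-001, against 1267 and 1314 as deposited. The same step gave 1874 higher and 1681 lower under Ad.DKK-1, against 1449 and 2082, and 575 and 265 between the vehicle arrays, against 245 and 521. The 2 collagen genes past the limma threshold became 0 with median centring, 1 without a trend, and 1 with no replicate block; without 1 pair of arrays the count was 1 to 3. Over these 8 alternatives the adjusted p of Col8a1 ran from 0.00975 to 0.0548 (past the threshold in 7) and that of Col5a1 from 0.0238 to 0.213 (past it in 4). The cause of these shifts was not tested. With 1 array a group, the number of arrays limits all differences.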
